A study of Mus musculus with 47 samples.

Results

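Restriction of valine was compared directly with restriction of isoleucine in the brains of male 3xTg mice, a mouse model of Alzheimer's disease (AD). The libraries compared were the 4 male libraries of the valine restricted diet (ValR 7, 9, 10 and 12) and the 3 male libraries of the isoleucine restricted diet (IleR 13, 14 and 17), chosen by the diet and sex in their labels from 37 libraries analysed. All mice carried the same genotype, which combines the human transgenes APPSwe and tauP301L with a mutant presenilin 1, so the transgenic background was shared by both diets and by the controls; the APP and tau transgenes are driven by the neuronal Thy1 promoter. The diets began at 6 months of age and lasted 9 months. The male series also held 4 libraries of the Control diet and 3 of the leucine restricted diet (LeuR), which stayed out of the contrast but entered the model, where they took part in the filter on low counts, the scaling and the estimate of the spread. The labels list 12 male ValR and IleR libraries, of which 5 are not analysed here. The labels name brain as the tissue and the methods name the left hemisphere, while the extraction text in the labels speaks of liver. Brain markers were abundant, with Snap25, a synaptic vesicle fusion protein of neurons, between 1221 and 1819 CPM (counts scaled to 1e6 per library) in the 7 libraries. Depth per library ran from 13464895 counts in ValR 7 to 25722333 counts in IleR 14.

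Valine and isoleucine are 2 of the branched-chain amino acids (BCAAs), essential nutrients that share their transporters, their transaminases and the branched-chain ketoacid dehydrogenase complex before their breakdown paths part. When an essential amino acid runs short, uncharged tRNA activates the kinase GCN2, translation initiation slows, and the transcription factor ATF4 is translated more. ATF4 then raises genes for amino acid synthesis, amino acid import and redox control, a program called the integrated stress response. A direct contrast asks whether the choice of the restricted amino acid left a mark on the brain transcriptome beyond what any restriction shares.

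No gene passed the threshold of an adjusted p of 0.05 in edgeR's quasi-likelihood test. Of 22197 genes tested, 0 were higher and 0 were lower in ValR than in IleR, which is 0.0% of the genes, and the smallest adjusted p was 0.958. At an unadjusted p under 0.05 there were 193 genes higher in ValR (0.869%) and 435 lower (1.96%), 2.83% of all genes together. With limma voom 0 genes passed as well, with 681 at an unadjusted p under 0.05, and DESeq2 called 7 genes, all lower in ValR, with 600 at an unadjusted p under 0.05. The same model called 5212 genes for ValR against Control and 3398 for IleR against Control, and these comparisons share their 4 Control libraries. The absence of calls does not show that the diets acted alike. For 57.4% of the genes tested, and for 87.0% of the 14024 genes whose log2 CPM averaged 1 or more, the 95% interval of the difference stayed within 2-fold in either direction, and for the others the interval reached past 2-fold.

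Several genes that handle amino acids under stress were among those named as lower in ValR. Genes with no overlap between the diets and an average log2 CPM of 1 or more were ranked, leaving out predicted models and pseudogenes. Pycr1, which makes proline in mitochondria, had the smallest p of them. Its level was 1.01, 1.01, 1.53 and 1.72 CPM in ValR 7, 9, 10 and 12, against 3.48, 3.73 and 3.73 CPM in IleR 13, 14 and 17. All IleR libraries lay above all ValR libraries, and the 4 Control libraries, at 1.24 to 2.40 CPM, overlapped only with ValR. The log2 fold change of Pycr1, given throughout as ValR minus IleR, was −1.46 with a 95% interval from −2.05 to −0.87 (adjusted p = 0.958 in edgeR and 0.0034 in DESeq2). These levels rest on 14 to 27 reads per ValR library and 56 to 99 per IleR library.

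Slc7a11, the cystine importer that feeds glutathione synthesis, was read much more deeply, with 430 to 1386 counts. It stood at 34.4, 29.0, 27.2 and 38.7 CPM in ValR 7, 9, 10 and 12, and at 63.6, 52.2 and 53.9 CPM in IleR 13, 14 and 17. The groups did not overlap, and here the Control libraries, at 47.7 to 64.4 CPM, lay on the side of IleR. The difference was −0.81 on the log2 scale (95% interval −1.16 to −0.46, adjusted p = 0.993 in edgeR and 0.0339 in DESeq2).

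Of 389 genes that met the naming rule in the lower direction and 364 in the higher direction, 12 of each are named. Myoc, which encodes the secreted protein myocilin, stood at 1.89 to 4.82 CPM in ValR and 12.2 to 22.7 CPM in IleR, a log2 fold change of −2.12 (−3.15 to −1.09). Npnt, which encodes the matrix protein nephronectin, stood at 4.95 to 9.17 against 12.4 to 19.2 CPM and Lix1 at 11.5 to 16.3 against 18.6 to 32.8 CPM. For both of these genes the Control libraries were higher than either diet, at 24.2 to 39.5 CPM for Npnt and 45.6 to 56.6 CPM for Lix1, so that ValR lay farther from Control than IleR did. The same order held for Mn1, a transcriptional coregulator, at 5.54 to 9.44 CPM in ValR, 14.1 to 18.4 in IleR and 31.6 to 59.7 in Control. Asic4, of the acid-sensing ion channel family, differed by −1.76 (−2.65 to −0.87). Hexa, a lysosomal hexosaminidase subunit, differed by −0.40 (−0.60 to −0.19). Igfbp5, an insulin-like growth factor binding protein, differed by −0.64 (−1.02 to −0.25). Atf5, Chac1 and Asns complete the 12 and are described with the stress response below. DESeq2 called Pycr1, Slc7a11, Myoc, Npnt and Lix1 and also the forebrain transcription factor gene Otx1 and the antisense transcript Emx2os. The last pair had at most 3 and 1 counts in a ValR library against 19 to 46 and 13 to 51 in an IleR library, and they are named here after their values were seen.

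The 12 genes named as higher in ValR had log2 fold changes from 0.23 to 0.98. Zfp740, a zinc finger protein gene, had the smallest p of them, with 119, 115, 121 and 127 CPM in ValR 7, 9, 10 and 12 against 98.8, 103 and 105 CPM in IleR 13, 14 and 17, a log2 fold change of 0.24 (0.09 to 0.39). Mcoln1, a cation channel of lysosomes, stood at 85.5 to 98.2 CPM in ValR and 70.6 to 83.4 CPM in IleR, a difference of 0.30 (0.11 to 0.50). Slco4a1, an organic anion transporter, stood at 10.9 to 20.0 CPM in ValR, 6.08 to 9.95 in IleR and 1.70 to 3.37 in Control, a difference of 0.86 (0.20 to 1.51). Among the rest were Rnmt, the mRNA cap methyltransferase, at 0.24, Nup93, a nuclear pore component, at 0.28, Hmox2, the constitutive heme oxygenase, at 0.23, and Csdc2, a cold shock domain protein gene, at 0.30. Tmem65, Rnf208, Ccdc115, Fmo2 and Olfr287 differed by 0.31, 0.24, 0.37, 0.98 and 0.91. Every one of the 12 missed the adjusted threshold in edgeR, limma voom and DESeq2.

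The integrated stress response genes lay lower in ValR than in IleR as a group. All 25 listed genes passed the filter on low counts, 22 of them had a fitted log2 fold change below 0, and their median was −0.36, against 49.7% of all genes below 0 and a median of 0.00. The interval lay wholly below 0 for 8 of the 25 (Slc7a11, Slc7a3, Chac1, Stc2, Atf5, Nupr1, Asns and Phgdh) and above 0 for 1 (Ddit4), where 1.96% and 0.869% of all genes did the same. In 7 of the 25 every ValR library was below every IleR library, and in 0 the reverse, against backgrounds of 3.43% and 2.4%. None of the 25 passed the adjusted threshold. The summed level of the list was 860 to 979 CPM in the ValR libraries, 1026 to 1145 CPM in the IleR libraries and 797 to 838 CPM in the Control libraries, with no overlap between the 3 diets. In the same libraries all 18 microglia genes (median −0.34) and all 13 meninges genes (median −0.58) also had fitted values below 0, and their part in the stress response difference was not tested. The list was written with earlier results of these libraries known and does not count as independent evidence of its direction.

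**Figure D1:**
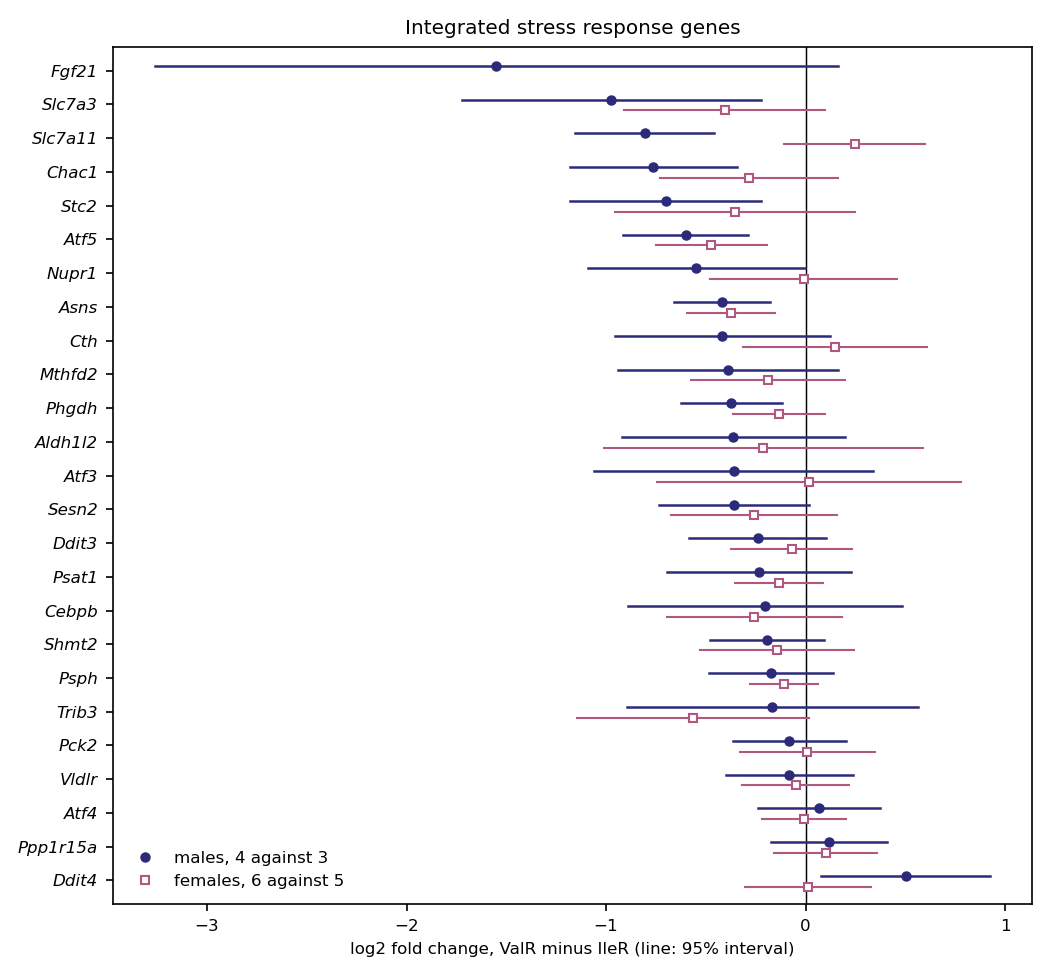
Log2 fold change of the 25 integrated stress response genes, ValR minus IleR, on the horizontal axis, with a row per gene. Filled circles are males (4 against 3 libraries), open squares are females (6 against 5), and lines are 95% intervals from edgeR; 22 of the 25 male values lie left of 0, and Slc7a11 lies on opposite sides of 0 in the 2 sexes.

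The members fell into the branches of the response as follows. Of its regulators, Atf5, a transcription factor whose mRNA is a target of ATF4, stood at 32.8, 45.4, 40.1 and 42.8 CPM in ValR 7, 9, 10 and 12 and at 49.4, 69.4 and 64.5 CPM in IleR 13, 14 and 17. The Control libraries, at 31.5 to 37.2 CPM, overlapped with ValR, while all IleR libraries lay above them. The difference between the restricted diets was −0.60 (−0.91 to −0.29, adjusted p = 1.00 in edgeR). Atf4 itself, which is regulated mainly at translation, stood at 111 to 124 CPM in ValR and 101 to 127 CPM in IleR, a difference of 0.07 (−0.24 to 0.37). Ddit3, the CHOP factor of the terminal response, was lower in every ValR library (13.1 to 16.2 CPM) than in the IleR libraries (16.2 to 20.5 CPM) by a narrow margin, with an interval from −0.58 to 0.10. Nupr1, a stress-induced chromatin protein gene, differed by −0.55 with overlapping groups.

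Of the enzymes, Asns, which makes asparagine, stood at 91.0, 113, 92.6 and 92.5 CPM in ValR and at 117, 153 and 120 CPM in IleR. ValR 9 lay closest to IleR, and the Control libraries, at 89.9 to 101 CPM, lay with the other 3 ValR libraries. The difference was −0.42 (−0.66 to −0.18). Chac1, which degrades glutathione, stood at 6.33, 9.17, 7.78 and 7.77 CPM in ValR and 10.1, 17.4 and 12.0 CPM in IleR, again with Control (7.00 to 8.28 CPM) inside the ValR range, a difference of −0.76 (−1.18 to −0.34). Phgdh, the entry enzyme of serine synthesis, differed by −0.37 (−0.63 to −0.12) with overlapping groups, ValR 9 at 90.3 CPM being above IleR 17 at 86.9 CPM. The later serine enzymes Psat1 (−0.23) and Psph (−0.17) and the mitochondrial folate enzymes Mthfd2 (−0.39), Shmt2 (−0.19) and Aldh1l2 (−0.36) had intervals that reached across 0.

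Of the transporters and secreted factors, Slc7a3, an importer of cationic amino acids, stood at 8.85, 11.3, 9.55 and 11.4 CPM in ValR and 20.8, 24.9 and 14.8 CPM in IleR, a difference of −0.97 (−1.72 to −0.23). Stc2, a secreted glycoprotein induced by stress, stood at 2.81, 2.90, 3.48 and 4.14 CPM in ValR and 4.53, 5.80 and 5.92 CPM in IleR, a difference of −0.70 (−1.18 to −0.22). For Stc2 the Control libraries, at 1.91 to 2.55 CPM, were below both diets. Fgf21, a hormone of protein restriction made mainly in liver, was at most 0.94 CPM in any of the 7 libraries, too low for a comparison. Ddit4, an inhibitor of mTOR complex 1, went the other way, at 49.7 to 74.8 CPM in ValR and 36.2 to 61.7 CPM in IleR (0.50, interval 0.08 to 0.93), with overlapping groups.

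**Figure D2:**
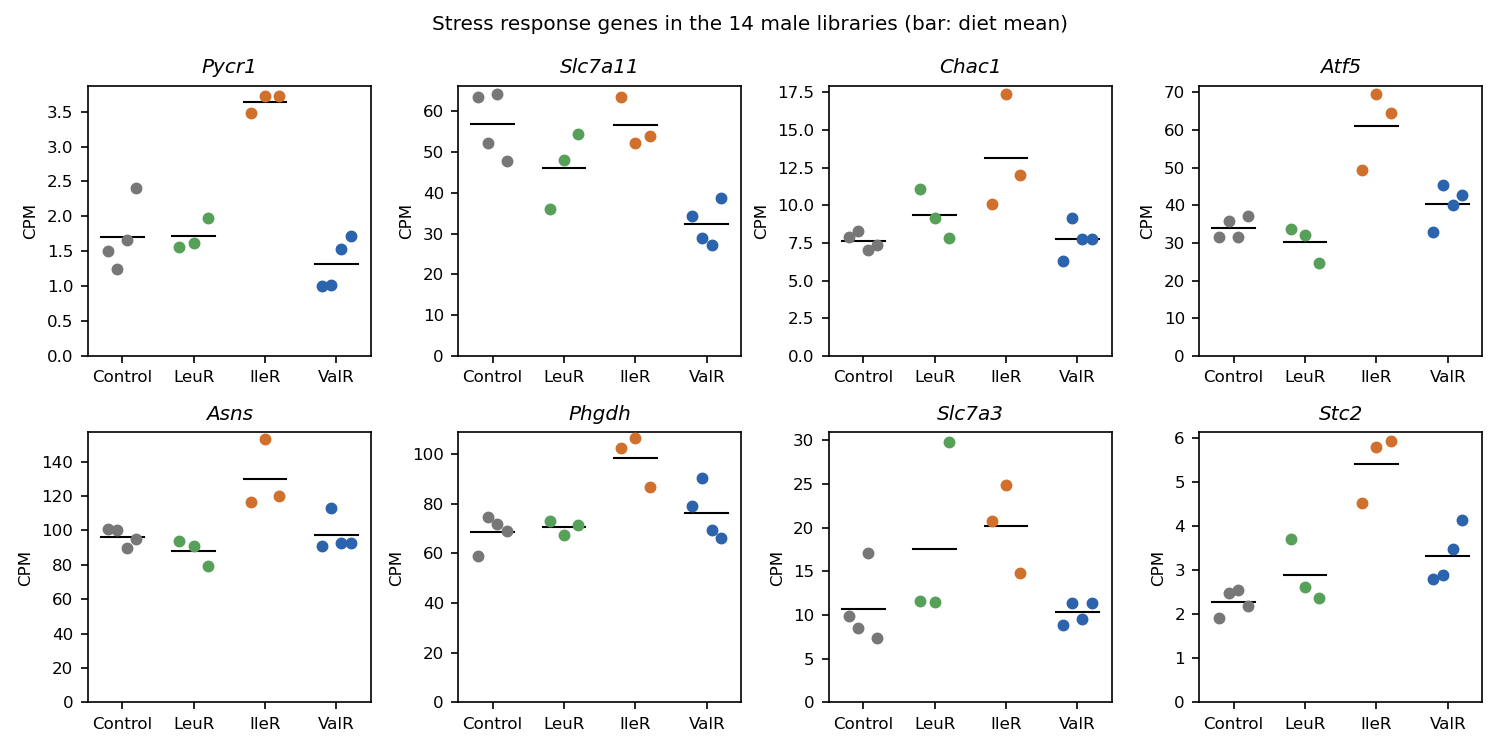
Level in CPM (vertical axes from 0) of 8 genes in each of the 14 male libraries, a point per library and a bar at the mean of each diet. For Pycr1, Chac1, Atf5, Asns and Stc2 the 3 IleR libraries lie above all ValR libraries and above all Control libraries, while for Slc7a11 the IleR and Control points share a range above ValR.

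The same model also set each diet against Control. Of the 8 genes with an interval below 0, 5 had every IleR library above every Control library, while for 6 the ValR and Control ranges overlapped. These 8 were picked as lower in ValR than in IleR, and the share of all genes with such ranges was not counted. For IleR against Control 15.3% of all genes were called. The fitted log2 difference from Control was 0.84 for Atf5 in IleR (edgeR adjusted p = 0.0023) and 0.24 in ValR (adjusted p = 0.226), and for Chac1 it was 0.79 in IleR (adjusted p = 0.0156) and 0.02 in ValR (adjusted p = 0.948). For Slc7a11 the order was the opposite, with −0.01 in IleR (adjusted p = 0.976) and −0.82 in ValR (adjusted p = 0.0018). All of these values rest on the same 4 Control libraries, whose regional make-up differed from both diets as described below.

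ATF4 and its partners bind an element read as TGATGNAA, known as the C/EBP-ATF or amino acid response element. In the RefSeq promoter windows of build GRCm38.p6, which run from 250 bases before to 50 after each gene start, this 8-letter motif was found on either strand in 3.97% of 32851 windows and in 4.51% of 27025 genes. Of the 25 listed genes 22 had a window and 9 held the motif, and Pycr1, which is not on the list, held it too. The 250 bases before the start are shown for the 4 genes with the motif in which the diets did not overlap, on the strand of the gene, with the motif or its reverse complement in capitals.

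Pycr1, chr11:120643749-120643998, minus strand: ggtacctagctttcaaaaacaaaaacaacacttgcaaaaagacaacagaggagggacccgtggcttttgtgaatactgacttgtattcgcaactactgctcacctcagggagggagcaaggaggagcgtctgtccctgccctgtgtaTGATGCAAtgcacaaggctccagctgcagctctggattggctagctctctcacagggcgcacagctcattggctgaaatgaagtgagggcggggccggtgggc
Slc7a11, chr3:50443614-50443863, minus strand: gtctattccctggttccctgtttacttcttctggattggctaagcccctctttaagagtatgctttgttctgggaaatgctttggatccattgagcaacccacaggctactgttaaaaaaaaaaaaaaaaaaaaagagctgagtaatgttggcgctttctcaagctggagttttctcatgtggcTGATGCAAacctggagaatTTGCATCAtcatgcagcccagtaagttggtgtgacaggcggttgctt
Asns, chr6:7693210-7693459, minus strand: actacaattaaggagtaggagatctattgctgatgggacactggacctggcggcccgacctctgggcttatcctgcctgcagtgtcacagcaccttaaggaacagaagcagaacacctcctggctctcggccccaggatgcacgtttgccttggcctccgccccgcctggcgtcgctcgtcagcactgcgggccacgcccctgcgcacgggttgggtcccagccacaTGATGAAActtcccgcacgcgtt
Chac1, chr2:119350992-119351241, plus strand: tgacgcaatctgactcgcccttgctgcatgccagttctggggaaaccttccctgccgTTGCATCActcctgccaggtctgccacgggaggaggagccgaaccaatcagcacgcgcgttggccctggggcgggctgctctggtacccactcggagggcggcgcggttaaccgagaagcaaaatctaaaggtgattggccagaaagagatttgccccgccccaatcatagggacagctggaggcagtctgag

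Slc7a11 held the motif in both orientations, starting 66 and 47 bases before the gene start, Pycr1 held it at 103 bases, Asns at 23 bases and Chac1 at 193 bases. Atf5 and Stc2, which differed between the diets by similar amounts, held no match in their windows. A match says only that the letters are present.

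No gene of BCAA breakdown passed the adjusted threshold. In 3 of the 25 genes every ValR library was below every IleR library and in 1 above, against 3.43% and 2.4% of all genes, counts too small to set these genes apart. Over the 25 genes of BCAA catabolism the median log2 fold change was 0.01, the values ran from −0.35 to 0.16, and for all 25 the 95% interval stayed within 2-fold. In the steps that all 3 BCAAs share, the transaminases Bcat1 (−0.10, interval −0.57 to 0.38) and Bcat2 (0.01, −0.30 to 0.32) and the dehydrogenase subunits Bckdha (0.14), Bckdhb (0.00), Dbt (−0.06) and Dld (0.06) had intervals across 0. Bckdk, the kinase that turns the dehydrogenase off, was the one gene of these steps whose groups did not overlap, at 36.1 to 38.9 CPM in ValR and 34.4 to 35.9 CPM in IleR (0.10, −0.07 to 0.26), while its phosphatase Ppm1k differed by 0.08 (−0.11 to 0.27).

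The path of the restricted amino acid itself was examined gene by gene. In the valine branch Hibch, a hydrolase found only on the valine path, stood at 15.0, 13.1, 16.0 and 14.8 CPM in ValR and 16.3, 17.9 and 16.5 CPM in IleR, with no overlap and an interval from −0.43 to 0.04. Acad8 (0.16), Hibadh (−0.02) and Aldh6a1 (−0.07) overlapped between the diets. In the isoleucine branch Acadsb, the first dehydrogenase of that path, stood at 75.4 to 82.2 CPM in ValR and 85.7 to 86.9 CPM in IleR, again with no overlap and an interval from −0.31 to 0.05. Hsd17b10 (0.02) and Acat1 (0.06) overlapped. On the shared path from propionyl-CoA, Mcee, the methylmalonyl-CoA epimerase, was the one gene of the 25 with an interval below 0, where 1.96% of all genes had one: 8.28, 8.29, 7.96 and 8.54 CPM in ValR against 11.2, 10.4 and 10.0 CPM in IleR (−0.35, −0.62 to −0.07). Pcca (0.09), Pccb (0.04) and Mut (−0.12) had intervals across 0. So did Echs1 (−0.11), which valine and isoleucine also share but ahead of propionyl-CoA. The leucine genes Ivd, Mccc1, Mccc2 and Auh lay between −0.04 and 0.04.

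**Figure D3:**
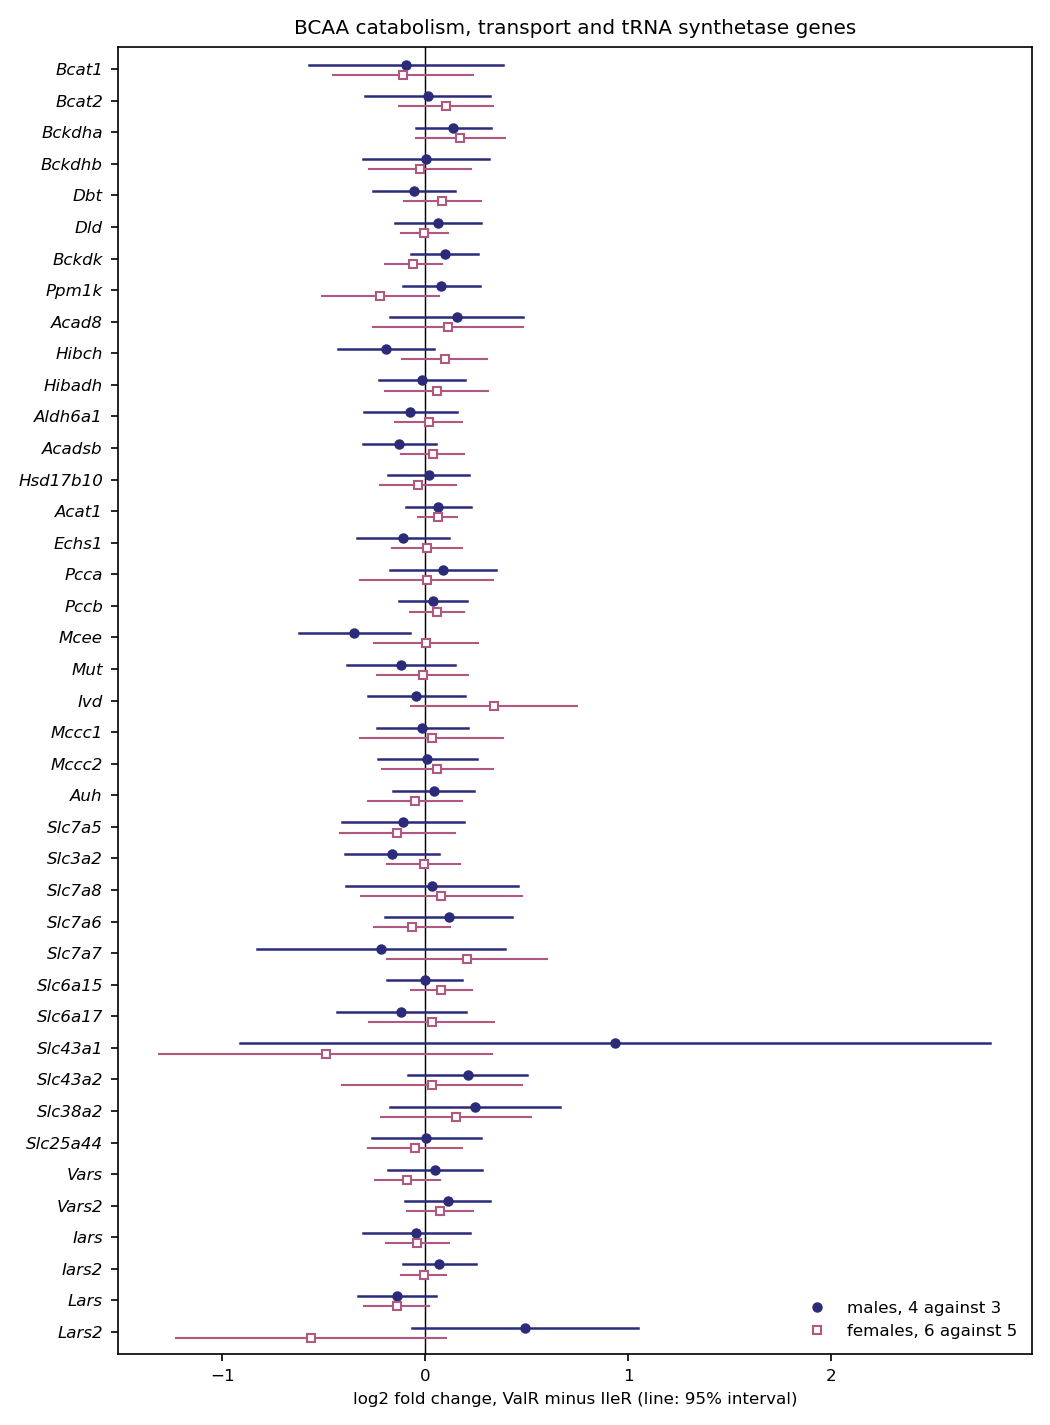
Log2 fold change, ValR minus IleR, of genes of BCAA catabolism, transport and tRNA charging on the horizontal axis, with a row per gene; filled circles are males, open squares are females and lines are 95% intervals. Mcee is the one male gene whose interval does not reach 0, and the wide interval of Slc43a1 belongs to a gene at under 1 CPM.

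No BCAA transporter or tRNA synthetase gene passed the adjusted threshold either. The 11 BCAA transporters had a median of 0.01, with intervals across 0 for each of them. Slc7a5, the large neutral amino acid transporter that carries BCAAs across the blood-brain barrier, differed by −0.11 (−0.41 to 0.19), its partner Slc3a2 by −0.16 (−0.40 to 0.07) and the mitochondrial BCAA carrier Slc25a44 by 0.01 (−0.26 to 0.27). Slc38a2, a sodium-coupled neutral amino acid importer, was higher in every ValR library (237 to 277 CPM) than in every IleR library (207 to 226 CPM), with an interval from −0.17 to 0.66. The synthetases that charge the tRNAs of the restricted amino acids, Vars for valine (0.05, −0.18 to 0.28) and Iars for isoleucine (−0.04, −0.31 to 0.22), did not differ beyond the spread between libraries, nor did Lars for leucine (−0.14, −0.33 to 0.05).

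Lists for mTOR signaling, autophagy, DNA replication and the amyloid and tau machinery centred near 0. In mTOR signaling the median of 34 genes was 0.05 and 2 had an interval above 0 (0.869% of all genes, which also stands beside the counts for autophagy and DNA replication), Ddit4 and the autophagy kinase gene Ulk1, at 124, 132, 127 and 150 CPM in ValR against 112, 125 and 114 CPM in IleR (0.19, 0.01 to 0.36). Sgk1, a kinase downstream of mTOR complex 2, ran from 56.3 to 248 CPM in ValR and 49.7 to 92.8 CPM in IleR, with ValR 9 setting the highest value. In autophagy the median of 36 genes was 0.00 and 2 had an interval above 0. Every ValR library lay above every IleR library for 3 of the 36 (2.4% of all genes) and below for 0. Atg13, of the initiation complex, was among the 3, at 102 to 113 CPM in ValR and 92.8 to 99.2 CPM in IleR (0.17, 0.01 to 0.33). Of 35 DNA replication genes the flap endonuclease gene Fen1 alone had an interval above 0 (0.29, 0.05 to 0.54), and the helicase subunit gene Mcm7 reached −0.01 to 0.70. For 19 amino acid sensing genes the median was 0.05, and the 2 leading members, the sestrin genes Sesn2 (−0.36) and Sesn1 (0.32), had opposite signs and intervals across 0. The amyloid and tau list had a median of 0.03 over 34 genes. App (−0.04, −0.26 to 0.19) and Mapt (0.04, −0.19 to 0.28), whose mouse gene models may also take reads of the human transgenes, did not differ beyond the spread. Clu, which encodes the chaperone clusterin, was the 1 member of 34 with an interval below 0 (1.96% of all genes), at 490 to 695 CPM in ValR and 640 to 763 CPM in IleR, and Apoe differed by −0.30 (−0.63 to 0.03).

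**Figure D4:**
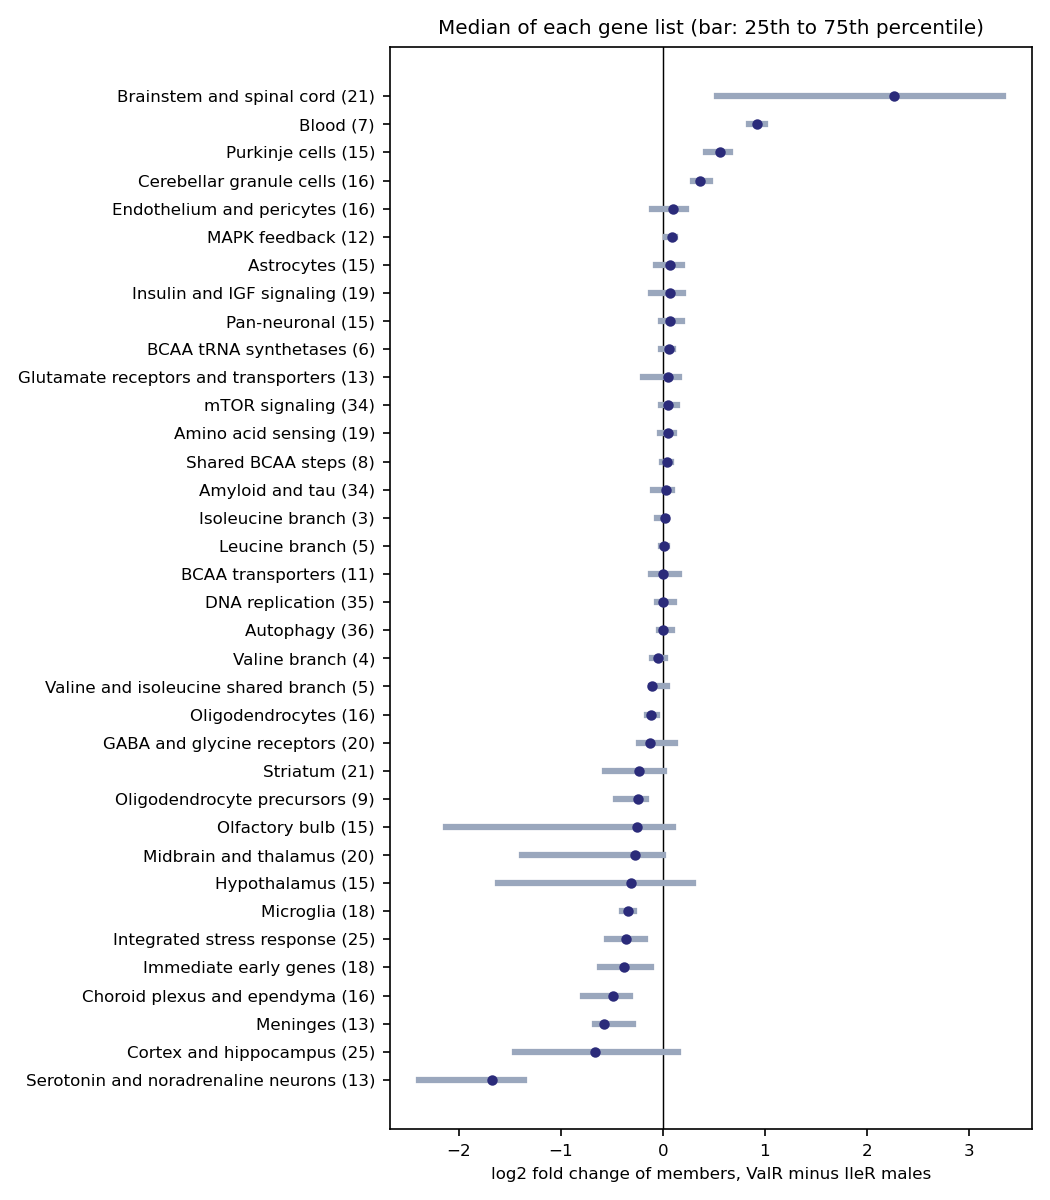
Median log2 fold change (ValR minus IleR, males) of each of the 36 gene lists, with the number of members tested in brackets; bars span the 25th to the 75th percentile of the members. The stress response lies at −0.36, the BCAA lists lie between −0.11 and 0.06, and the lists farthest from 0 are regional ones, Brainstem and spinal cord at 2.27 and Serotonin and noradrenaline neurons at −1.67.

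The lists with the highest and the lowest median were markers of brain regions, and blood came next in distance from 0, at 0.92. In tissue RNA, fewer cells of a type and less RNA per cell cannot be told apart. To place each library between hindbrain and forebrain, the log2 CPM values of the granule cell, Purkinje cell and brainstem lists were averaged and the average of the cortical and striatal lists was subtracted, which gave a hindbrain score. It was 2.51, 1.97, 2.10 and 1.76 in ValR 7, 9, 10 and 12 and −0.11, 1.12 and 0.83 in IleR 13, 14 and 17. The groups did not overlap, and the difference of 1.47 had an exact two-sided permutation p of 0.0571. This p is the doubled one-sided p over the 35 splits of 4 against 3 libraries, and 0.0571 is the smallest value it can take. Without the Hox genes the scores overlapped, with ValR 9 at 2.33 below IleR 17 at 2.58, a difference of 0.988 and an exact permutation p of 0.114. Scores of the Control libraries ran from −6.41 to −4.00, so both restricted diets lay far from Control and near each other on this scale.

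**Figure D5:**
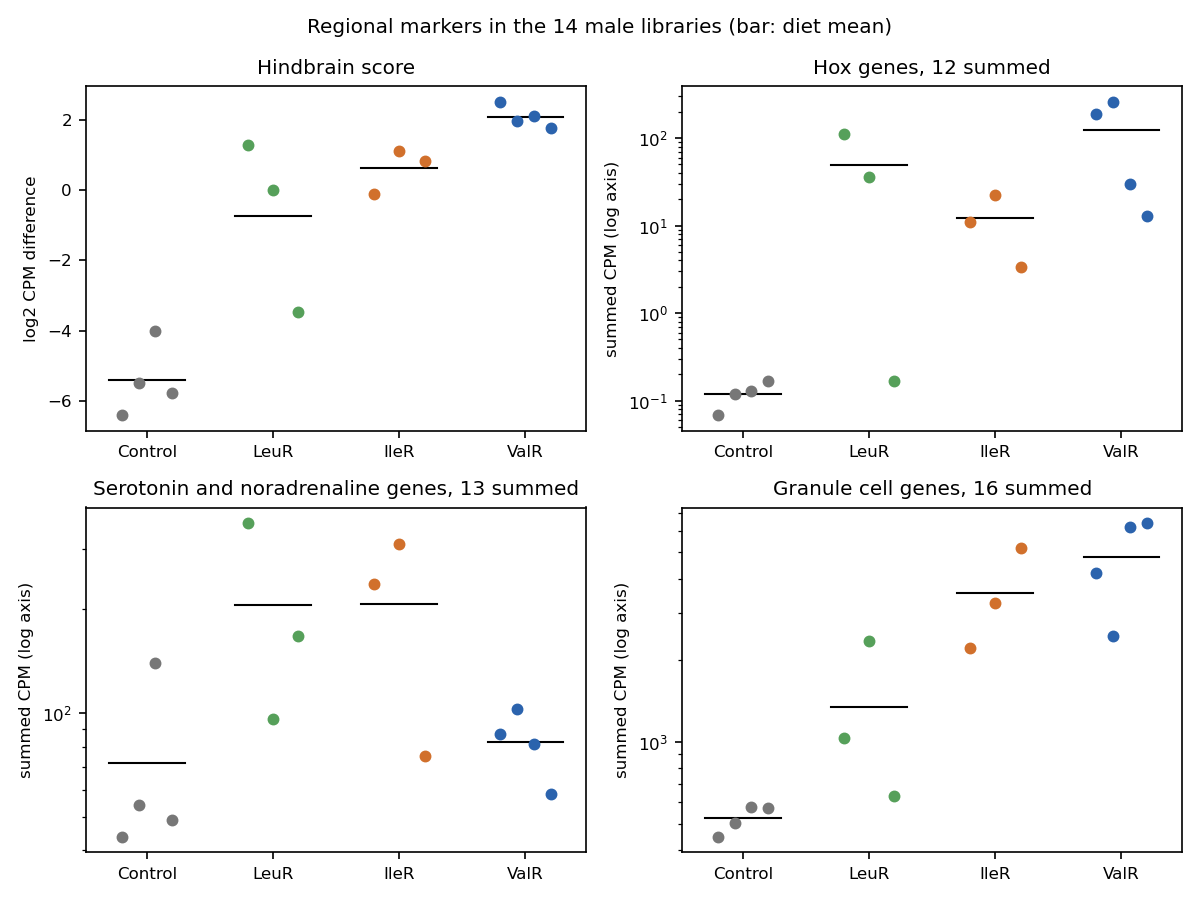
Hindbrain score (log2 CPM difference) and the summed CPM, on log axes, of the Hox genes, the serotonin and noradrenaline genes and the granule cell genes in each of the 14 male libraries, a point per library and a bar at the diet mean. All ValR scores lie above all IleR scores, while in the Hox panel ValR 7 and 9 stand at 188 and 261 CPM and ValR 10 and 12 at 30.1 and 12.7 CPM.

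Single regional markers ordered the libraries in different ways. Hox genes, which mark the caudal hindbrain and spinal cord, were highest in ValR 7 and 9, with a summed level of 188 and 261 CPM, against 30.1 and 12.7 CPM in ValR 10 and 12, 3.38 to 22.5 CPM in IleR and 112 CPM in LeuR 19. Hoxa5 stood at 30.3, 43.3, 0.88 and 1.40 CPM in ValR 7, 9, 10 and 12 and at 0.43, 2.11 and 0.12 CPM in IleR. Hoxb3 stood at 23.7, 30.4, 6.25 and 1.21 CPM in ValR against 1.55, 3.54 and 0.59 CPM in IleR, and Hoxc4 at 19.4, 22.2, 2.95 and 1.21 against 0.56, 1.36 and 0.18 CPM. ValR 10 and 12 lay nearer to IleR than to ValR 7 and 9 for these genes. Of 16 Hox genes on the list 12 passed the filter, all with a fitted value above 0 and 8 with an interval above 0 (0.869% of all genes), although the groups overlapped for each of the 12. Their summed level was 0.07 to 0.17 CPM in Control and 0.17 CPM in LeuR 21. They could thus pass the filter almost only through ValR or IleR. These counts partly follow from the filter, and the share of all genes is not a like comparison.

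Markers of the cerebellum ordered the libraries differently. Cbln3, a granule cell gene, was at 653, 322, 947 and 1062 CPM in ValR and 285, 464 and 766 CPM in IleR, so that ValR 9 lay among the IleR libraries (0.56, −1.49 to 2.62). All 15 Purkinje genes had fitted values above 0 with a median of 0.56, and 15 of 16 granule genes with a median of 0.36, but none of either list had an interval above 0. Without IleR 13 these medians were 0.30 and 0.14, and without IleR 17 they were 0.96 and 0.80. Lhx1, a homeobox gene of Purkinje and other hindbrain neurons, was at 46.9, 27.0, 54.6 and 57.2 CPM in ValR and 21.4, 30.7 and 49.0 CPM in IleR (0.46, −1.31 to 2.23).

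Genes of serotonin and noradrenaline neurons, whose cell bodies lie in the upper brainstem, had fitted values below 0 for all 13 members tested, with a median of −1.67, and for 4 of them the interval lay below 0 (1.96% of all genes). Without IleR 14 the median was −1.11. Slc18a2, the vesicular monoamine transporter, was at 4.75, 6.07, 6.72 and 2.42 CPM in ValR and at 51.6, 45.2 and 3.08 CPM in IleR 13, 14 and 17. IleR 17 lay within the ValR range, so the difference of −2.74 (−5.23 to −0.24) rests on IleR 13 and 14. Tph2, the serotonin-synthesizing enzyme of neurons, was at 56.8 CPM in IleR 14 and at most 11.6 CPM in the other 6 ValR and IleR libraries. Of 20 midbrain and thalamus genes 15 had fitted values below 0 and 5 above, with a median of −0.28, and 2 had an interval below 0 (1.96% of all genes). Their summed level overlapped, at 881 to 1535 CPM in ValR and 910 to 1466 CPM in IleR. For 4 of the 20 every ValR library was below every IleR library (3.43% of all genes), and for 0 above. In this list Foxa2 had 0 counts in all ValR libraries, at least 2.62-fold lower than in IleR when set against 3 counts per library. It passed the filter only through another diet, so its fold is no support for the direction. Tcf7l2, a thalamic transcription factor gene, stood at 6.33 to 32.7 against 38.5 to 57.6 CPM (−1.63, −3.70 to 0.44).

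Of 25 cortex and hippocampus genes 15 had fitted values below 0 and 10 above, with a median of −0.66, or −0.28 when only the 7 libraries were fitted. The interval lay below 0 for 5 (1.96% of all genes) and above 0 for 0, and for 3 every ValR library was below every IleR library (3.43% of all genes). Some members were abundant in both diets, such as Nptx1, a neuronal pentraxin gene, at 339 to 610 CPM in ValR and 237 to 454 CPM in IleR (0.54, −0.17 to 1.26). For some other members 1 library set much of the difference. Crym, which encodes a thyroid hormone binding protein, stood at 14.1 CPM in IleR 13, at most 0.716 CPM in the other 6 ValR and IleR libraries and 19.4 to 38.4 CPM in Control. Ddn, a postsynaptic protein gene of the cortex and hippocampus, stood at 99.1 CPM in IleR 13, at 2.16 to 7.20 CPM in the other 6 and at 438 to 1233 CPM in Control. Without IleR 13 the log2 fold change of Crym moved from −3.89 to −0.76, and the median of the cortex and hippocampus list from −0.66 to −0.02. Nrgn, the synaptic protein neurogranin, was one of the forebrain genes whose groups did not overlap, at 10.3, 12.2, 19.5 and 46.1 CPM in ValR against 94.0, 59.0 and 74.7 CPM in IleR (−1.78, −3.30 to −0.26). Camk2a, a kinase gene abundant in forebrain neurons, was at 107 to 209 CPM in ValR and 177 to 415 CPM in IleR, where Control held 1275 to 5372 CPM, while Slc17a7, which both cerebellum and cortex express, was at 200 to 383 and 190 to 324 CPM.

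The fit was repeated with the score of each library as a covariate. The score did not overlap between the diets, so this fit cannot fully separate the score from the diet. The median of the stress response list was then −0.50 and 11 of 25 genes had an interval below 0, where 2.34% of all genes did. Pycr1 moved from −1.46 to −1.36, Slc7a11 from −0.81 to −0.68, Atf5 from −0.60 to −0.71, Chac1 from −0.76 to −0.87 and Asns from −0.42 to −0.47. In the same fit the Brainstem and spinal cord median was 0.23 in place of 2.27. That list is part of the score, so its fall was fixed in advance by the fit. The median of the serotonin and noradrenaline list, which is not in the score, was −2.97 in place of −1.67. Those of blood (0.01 in place of 0.92), midbrain and thalamus (−0.95 in place of −0.28) and hypothalamus (0.81 in place of −0.31) also moved. Microglia genes with an interval below 0 numbered 10 of 18 in that fit, against 1 of 18 without the covariate, and the choroid plexus and ependyma median was −1.48 in place of −0.49. The part of regional make-up in these differences was not tested further.

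Of the 9 cell type lists 5 had a median below 0 and 4 above. All 18 microglia genes had fitted values below 0 with a median of −0.34, or −0.15 without IleR 13, and Cx3cr1, the fractalkine receptor of microglia, was the 1 of 18 with an interval below 0 (1.96% of all genes), at 28.5 to 41.9 CPM in ValR and 35.9 to 58.7 CPM in IleR. The summed microglia level overlapped, at 409 to 694 CPM in ValR and 544 to 799 CPM in IleR. All 13 meninges genes had fitted values below 0 with a median of −0.58, or −0.30 without IleR 17, and the collagens and Lum, a proteoglycan gene of fibroblasts (1.59 to 2.38 against 2.49 to 4.41 CPM), were among them. For 1 of the 13 the interval lay below 0, where 1.96% of all genes had such an interval. Myoc above had the same direction, and the part of the meninges in its difference was not tested. Choroid plexus and ependyma genes had a median of −0.49, which ran from −0.97 without ValR 9 to −0.16 without ValR 12, and a summed level of 275 to 3729 CPM in ValR, a range that contains the IleR range of 1494 to 2900 CPM.

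Of the oligodendrocyte lineage, Gpr17, a receptor of committed precursors, was lower in every ValR library (11.3 to 25.2 CPM) than in the IleR libraries (26.9 to 34.6 CPM), a difference of −0.73 (−1.30 to −0.17), and Opalin, of mature cells, differed by −0.54, with an interval below 0 and overlapping groups. Vcan, a matrix proteoglycan on the same precursor list, went the other way (0.32, 0.05 to 0.59), at 35.9 to 42.7 against 29.1 to 34.2 CPM. Intervals lay below 0 for 1 of 16 oligodendrocyte and 2 of 9 precursor genes (1.96% of all genes) and above 0 for 0 and 1 of them (0.869%). The 16 oligodendrocyte genes together had a median of −0.11 and the 9 precursor genes −0.24, which without IleR 13 were 0.06 and −0.13. Astrocyte (0.07) and pan-neuronal (0.07) genes centred near 0, the latter at −0.05 without IleR 17. Blood genes had a median of 0.92 (0.61 without ValR 9), set by ValR 7, 9 and 10: Hba-a1, a hemoglobin gene, was at 930, 1345 and 627 CPM there, at 242 CPM in ValR 12 and at 306 to 446 CPM in IleR. The immediate early genes, which follow recent neuronal activity, had a median of −0.38 with 0 of 18 intervals away from 0.

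Receptor and insulin lists centred near 0. The 13 glutamate receptor and transporter genes had a median of 0.05 and the 20 GABA and glycine receptor genes a median of −0.13, all with intervals across 0, among them the NMDA receptor subunit gene Grin2b (−0.71, −1.55 to 0.13). The 19 insulin and IGF signaling genes had a median of 0.07, with Igfbp5 described above as the 1 gene whose interval lay away from 0, below it (1.96% of all genes). The 12 MAPK feedback genes (median 0.09), the 16 endothelium and pericyte genes (0.10), the 21 striatum genes (−0.24), the 15 olfactory bulb genes (−0.25) and the 15 hypothalamus genes tested of 22 (−0.31) held few or no intervals away from 0. The exceptions were 2 of the 16 endothelium and pericyte genes with an interval below 0 (1.96% of all genes), Pdgfrb of pericytes and Cldn5 of endothelial tight junctions, each at −0.30.

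The same contrast was fitted in females, which are other mice. Between 6 ValR and 5 IleR female libraries 0 of 20344 genes passed the adjusted threshold, with 315 lower in ValR at an unadjusted p under 0.05 (1.55%) and 532 higher (2.62%). The stress response list had a median of −0.13 with 18 of 24 genes below 0, where 47.7% of all genes were, and 2 of the 24 had an interval below 0. Some marker lists went the other way in females, with fitted values higher in ValR than in IleR. All 16 choroid plexus and ependyma genes were above 0 with a median of 1.34 and 2 intervals above 0. All 13 meninges genes were above 0 with a median of 0.57 and 4 such intervals, and all 7 blood genes with a median of 1.40 and 6. Their part in the female values was not tested. Atf5 in ValR females ran from 25.0 CPM over a median of 29.4 to 31.4 CPM, and in IleR females it stood at 41.3, 26.3, 33.1, 55.3 and 43.0 CPM, a log2 fold change of −0.47 (−0.75 to −0.19). Asns ran from 86.3 over 92.1 to 110 CPM in ValR females and stood at 135, 113, 110, 111 and 141 CPM in IleR females, with no overlap, though the nearest libraries almost touched, and a difference of −0.37 (−0.59 to −0.15). Pycr1 differed by −0.57 (−1.12 to −0.02), with groups that overlapped. None of the 3 passed the adjusted threshold in females. Chac1 differed by −0.28 (−0.73 to 0.16).

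Slc7a11 did not follow in females. It ran from 47.3 over a median of 56.4 to 69.4 CPM in ValR and stood at 46.3, 46.5, 47.0, 56.7 and 44.2 CPM in IleR, a difference of 0.25 (−0.11 to 0.60). The difference between the sexes in the contrast was −1.07 for Slc7a11, with an interval from −1.60 to −0.54 and an adjusted p of 1.00 in edgeR. Across 22465 genes 0 passed the test of that difference, with 840 at an unadjusted p under 0.05. The hindbrain score did not separate the diets in females, at −4.05 to 1.61 in ValR and −4.50 to 1.18 in IleR (exact permutation test not reaching the threshold, p = 0.784).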

How the data were processed

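The values deposited by the authors were expected counts per Ensembl gene, estimated by RSEM according to the table's name, from brain RNA-sequencing reads aligned to GRCm38. The version of RSEM is not given in the sources used here, and the submitters' processing notes name R 3.4.3, edgeR and limma. The authors also left out outlier libraries after a principal component analysis. The sources differ on the library kit (poly(A) selected or total RNA). Deposited tables of the authors' own comparisons hold fold changes and p-values and were not used.

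Expected counts were rounded to whole numbers. A gene was kept when all libraries of some diet had 1 count or more (22197 of 55416 genes). Counts were scaled by TMM and fitted with edgeR 4.0.16 in R 4.3.3 (quasi-likelihood test) over the 14 male libraries, with the contrast ValR minus IleR and Benjamini-Hochberg adjustment at 0.05. Levels are TMM-scaled CPM, and log2 CPM used a prior count of 2. Intervals are 95% intervals of the fitted difference. A list gene is said to have an interval above or below 0 where its unadjusted p was under 0.05. Females were fitted in the same way. limma 3.58.1 (voom), DESeq2 1.42.0, other filters and scalings, the hindbrain score as a covariate and the omission of each library were alternatives. The scripts were tested on simulated data.

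Named genes were the 12 per direction with the smallest p among genes averaging a log2 CPM of 1 or more whose libraries did not overlap between the diets, besides fixed regional genes. Predicted gene models, pseudogenes and genes without a symbol were left out before this ranking. A few genes are not reported here, although list counts include them. The comparison, the 36 gene lists and the tests were chosen with earlier results of these data known. Libraries of a diet differed by more than sampling noise (lowest chi-square per degree of freedom 9.08 in 9 pairs). The labels do not tie libraries to litters or batches, so p-values measure the spread between these libraries. Gene positions and names came from GENCODE, with a name for 52135 gene IDs, and promoter windows from RefSeq.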

Additional observations from a re-analysis of the deposited data

Results flagged for a closer look

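In 7 of 86 sets of 4 ValR libraries examined, the most extreme library stood apart from the others by more than Dixon's 95% critical value, which chance does in about 1 of 20 such sets. ValR 9 was the highest library for 4 stress response genes. It stood at 113 CPM for Asns (next 92.6), 196 CPM for Psat1 (next 133), 3.64 CPM for Atf3 (next 2.12) and 8.22 CPM for Cebpb (next 4.61). ValR 9 was also the lowest library for Acad8, a dehydrogenase of the valine path, at 29.5 CPM (next 33.8). ValR 12 was the highest for the transaminase gene Bcat2, at 16.1 CPM (next 12.9). ValR 10 was the lowest for Myoc, at 1.89 CPM (next 4.45).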

How the results depend on the processing

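The count of genes past the adjusted threshold was 0 under every alternative run except DESeq2, which called 7 genes, all lower in ValR. The counts at an unadjusted p under 0.05 moved more. Genes higher in ValR (193) numbered 345 with only the 7 libraries, 310 when the hindbrain score was a covariate, and 103 to 486 with 1 library left out (103 without IleR 13, 453 without ValR 9, 486 without IleR 17 and 321 without LeuR 21). Genes lower in ValR (435) numbered 793 with only the 7 libraries, 288 with edgeR's filterByExpr, and 252 to 673 with 1 library left out (252 without IleR 13 and 673 without ValR 9). Genes without overlap between the diets (1294) numbered 1426 without TMM and 1947 to 3930 with 1 of the 7 libraries left out, since fewer libraries overlap less often. Recomputing the counts without overlap, and the counts at an unadjusted p under each setting, was decided after seeing the data. With only the 7 libraries fitted, fewer members passed the filter and 3 list medians moved, to −0.28 for cortex and hippocampus (23 genes in place of 25), −0.04 for the olfactory bulb (12 in place of 15) and −0.01 for the hypothalamus (11 in place of 15). List medians also moved with 1 of the 7 libraries left out. That of cortex and hippocampus was −0.02 without IleR 13, that of the olfactory bulb ran from −0.74 without ValR 9 to 0.07 without IleR 13, that of the hypothalamus from −0.67 without IleR 17 to 0.24 without ValR 12, and that of oligodendrocytes from −0.22 without ValR 9 to 0.06 without IleR 13. Those of midbrain and thalamus (−0.42) and of the striatum (−0.42) were lower without ValR 9, that of immediate early genes was −0.25 without ValR 12, that of GABA and glycine receptors 0.03 without IleR 13 and that of endothelium and pericytes 0.23 without IleR 13. That of brainstem and spinal cord ran from 1.55 without ValR 9 to 2.66 without ValR 12. That of MAPK feedback ran from 0.03 without IleR 14 to 0.20 without IleR 17. The stress response median stayed between −0.45 and −0.27 with DESeq2's size factors, with only the 7 libraries and with 1 of the 7 left out, and was −0.50 with the covariate. The hindbrain score difference ran from 0.988, without the Hox genes, to 1.73. The cause of these shifts was not tested. No paired analysis was possible because each library number is used for 1 library only. For genes at low counts the intervals were wide at 4 against 3 libraries.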
